A study of Mus musculus with 2 samples.

Results

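The Notch genes described here are 3 receptors (Notch1, Notch2 and Notch3), 3 ligands (Jag1, Jag2 and Dll1) and 2 target genes (Hes1 and Hey1), 8 of the 20198 genes counted. They were chosen by name, and all 8 were found in the table of UMI counts (unique molecular identifiers, 1 for each captured RNA molecule). Each was read in every cluster of cells that the authors deposited and in both libraries of the study. Library UW came from the pooled corneas of 4 male mice without a wound. Library W came from 4 male mice taken 24 h after the central corneal epithelium had been marked with a trephine of 2.5 mm and scraped off. The mice were 6 to 8 weeks old, their strain was not given in the sources used here, and 8 corneas were pooled in each library. All corneas were split with dispase, the epithelial sheet was taken apart with trypsin and the rest with collagenase A, and the cells were then sequenced by the 10x Genomics 3′ method.

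Notch receptors sit in the membrane and are bound by Jagged or Delta ligands on a neighbouring cell. Ligand binding lets ADAM metalloproteases and then γ-secretase cut the receptor, and its intracellular part moves to the nucleus, joins the DNA-binding protein RBPJ and Mastermind-like coactivators and turns on genes such as Hes1 and Hey1, which encode transcriptional repressors. In stratified epithelia, the corneal epithelium among them, the pathway is known for its part in the differentiation of cells that leave the basal layer.

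Jag1 differed from Jag2 and Dll1 in the clusters where it was high, and the 250 bases before the start site of these 3 ligand genes are shown for reference. The sequences come from RefSeq on build GRCm38.p6, all on the minus strand, and capitals mark every match to CACGNG, a site bound by Hes and Hey repressors, on either strand.
Jag1, chr2:137116521-137116770: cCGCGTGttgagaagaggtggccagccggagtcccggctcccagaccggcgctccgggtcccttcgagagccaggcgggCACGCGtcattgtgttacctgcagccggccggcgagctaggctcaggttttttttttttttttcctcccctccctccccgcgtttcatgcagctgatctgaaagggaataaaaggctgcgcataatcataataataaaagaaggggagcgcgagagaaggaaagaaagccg
Jag2, chr12:112929496-112929745: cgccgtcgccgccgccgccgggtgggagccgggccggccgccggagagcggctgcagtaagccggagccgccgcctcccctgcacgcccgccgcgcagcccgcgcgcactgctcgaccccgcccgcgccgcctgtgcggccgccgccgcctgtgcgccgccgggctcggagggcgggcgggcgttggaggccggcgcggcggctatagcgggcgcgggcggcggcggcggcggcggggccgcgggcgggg
Dll1, chr17:15376933-15377182: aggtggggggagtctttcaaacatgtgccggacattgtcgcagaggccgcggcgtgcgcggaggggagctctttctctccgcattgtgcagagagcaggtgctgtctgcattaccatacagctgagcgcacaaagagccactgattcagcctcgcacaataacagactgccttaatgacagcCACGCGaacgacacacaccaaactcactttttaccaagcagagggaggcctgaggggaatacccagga
Windows of 300 bases (250 before and 50 after a start) were held for 6 of the 8 genes, with 2 starts for Dll1. Hes1 and Hey1 were not among them. The core RBPJ motif TGGGAA was found in none of these 7 windows on either strand, against 25.6% of all 32851 windows. CACGNG was found in the windows of Notch2, Notch3, Jag1, Jag2 and Dll1 and not in that of Notch1, against 27.5% of all windows, and the match of Jag2 lay in the 50 bases after the start. A match or its absence describes letters and not binding.

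In the GENCODE M21 annotation of the same build, Notch1 lies at chr2:26457903-26516663 on the minus strand, Notch2 at chr3:98013527-98150361 on the plus strand and Notch3 at chr17:32120820-32166852 on the minus strand. The ligand genes lie at chr2:137081456-137116644 (Jag1), chr12:112907819-112929776 (Jag2) and chr17:15367354-15376872 (Dll1), all on the minus strand. Hes1 spans chr16:30064384-30067796 on the plus strand and Hey1 chr3:8663359-8667256 on the minus strand. Jag1, Hes1 and Hey1 overlap no other annotated gene. Notch1, Notch3 and Dll1 each overlap an annotated gene on the opposite strand (0610009E02Rik and Gm13568, Gm17276 and A930024N18Rik), and Notch1, Notch2 and Jag2 overlap genes on their own strand (Mir6996, Gm42819 and Gm42820, and Mir6941), whose UMIs could not be told apart here.

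The table held 16450 cells and 367166822 UMIs in UW and 12417 cells and 289586482 UMIs in W, and 52 barcodes occurred in both libraries. The study states a larger number of cells for each library than the table held, and the others were not analysed here, which bears on every share of clusters given below. Cells carried the authors' cluster numbers without names, so names were given from marker genes. Clusters 1 to 9 and 11 were taken as epithelial. By the summed level of Krt5, Krt12, Krt14, Epcam and Cdh1 this held for all of them but cluster 7, whose 7206 CPM lay below the 9848 and 12330 CPM of clusters 13 and 14. Cluster 7 was counted as epithelial by its superficial markers (score 2.58, with 3 of them among its 10 leading genes). Among them cluster 3 was basal-like (with the laminin and integrin genes Lama3, Lamb3 and Itgb4 among the 10 that led it), clusters 1, 2 and 4 suprabasal-like, cluster 5 conjunctival-like (Krt4 and Krt19), clusters 6 and 7 superficial-like, cluster 8 mitotic-like and cluster 11 S phase-like. Cluster 9 was led by Wfdc18 and Dlk2 and is called by these genes, because its scores for S phase (1.43), basal (1.14), mitotic (1.08) and limbal (1.06) markers lay close together. Cluster 0 was keratocyte-like (Kera), with the endothelial gene Kdr also among its 10 leading genes. Cluster 10, led by Penk and Myoc, scored highest for corneal endothelium (2.70), then for Schwann cells (2.02), keratocytes (1.70) and vascular mural cells (1.48). This cluster and clusters 13, led by Ccl3, and 14, led by H2-Aa, were left unnamed. Cluster 13 scored highest for neutrophils (3.06) and next for Schwann cells (1.52). Cluster 14 scored highest for dendritic cells (3.21) and next for monocytes and macrophages (1.885). Cluster 15 was monocyte- and macrophage-like and cluster 16 T-like. Clusters 13 to 17 held 15 cells of UW and 1559 of W, so they are described for W only. The median depth was 22014 UMIs per cell in UW and 20290 in W. Within clusters it differed more, with 13944 in UW and 24009 in W in cluster 9, and 21461 and 35514 in cluster 11. It was 11853 and 17588 in cluster 0, and lower in W in others, with 28377 and 22095.5 in cluster 2.

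Levels are given as CPM, the usual counts-per-million scale, in which the UMIs of a gene are divided by all UMIs of that cluster and library, with an exact Poisson 95% interval. Because 3′ counting tags 1 end of a molecule, levels were not divided by gene length, and levels of different genes still differ in how well each is captured. Each condition was 1 library. No p-value can be given, and all intervals cover counting error only and say nothing of variation between mice.

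Notch1 marked the basal side of the epithelium. Its UW level was 221 CPM (211 to 232) in cluster 9, 209 CPM in mitotic-like cluster 8, 151 CPM in basal-like cluster 3 and 149 CPM in S phase-like cluster 11. It was 66.4, 53.2 and 33.5 CPM in suprabasal-like clusters 1, 4 and 2, and 10.9 and 4.71 CPM in superficial-like clusters 6 and 7. The intervals of clusters 9 and 8 overlapped, as did those of clusters 3 and 11, so within each pair the order is not resolved. In W the 4 highest epithelial clusters were the same, at 124, 113, 94.7 and 77.4 CPM in clusters 9, 8, 11 and 3.

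Notch3 was spread over basal and suprabasal clusters. It was highest in suprabasal-like cluster 1 of UW, at 62.9 CPM (60.8 to 65.0), and stood at 55.8 CPM in basal-like cluster 3, 50.2 and 31.1 CPM in suprabasal-like clusters 4 and 2, 44.9 CPM in S phase-like cluster 11 and 39.1 CPM in mitotic-like cluster 8 of UW. In W it was 42.3 CPM (39.0 to 45.8) in cluster 1 and 36.7 CPM (34.3 to 39.3) in cluster 4, with overlapping intervals. In cluster 9, where Notch1 was highest, Notch3 reached 11.4 CPM in UW and 9.80 CPM in W, about its level in superficial-like cluster 6 (10.6 and 12.9 CPM). Notch3 made up 4.53% of the UMIs of the 4 receptors in cluster 9 of UW (exact binomial interval 3.64 to 5.55%) and 40.2% in cluster 1 (39.2 to 41.2%). Notch1 made up 87.6% and 42.4% in the same clusters.

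Notch2 was the main receptor of clusters 0 and 10. Its UW level was 85.4 CPM (82.0 to 88.8) in keratocyte-like cluster 0 and 66.9 CPM in cluster 10, and lay between 9.56 and 34.9 CPM in the epithelial clusters. In cluster 0 it made up 89.1% of receptor UMIs in UW and 86.9% in W. Among epithelial clusters Notch2 held the largest share in superficial-like clusters 6 and 7 of UW, at 56.5% and 54.4%, where total receptor UMIs were low at 49.4 and 17.6 CPM. Notch4 was near the limit of detection, at no more than 1.88 CPM in any cluster of either library.

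**Figure D1:**
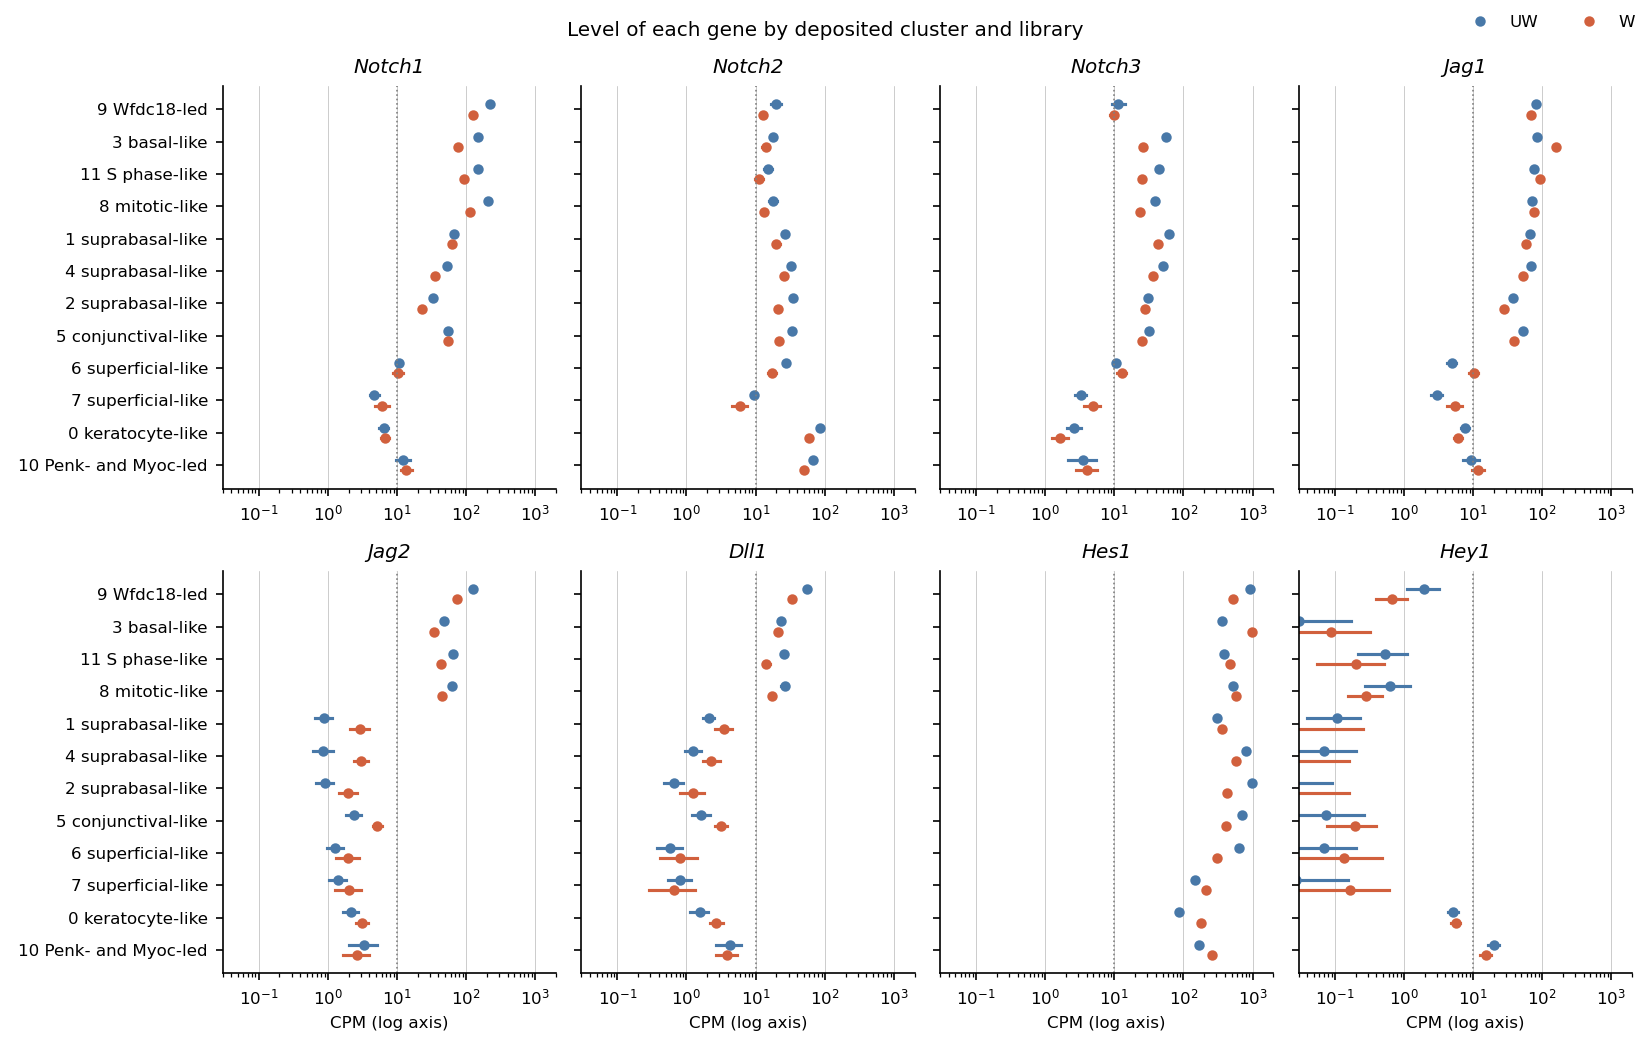
Level of each of the 8 genes in CPM (log axis) in the 12 clusters present in both libraries, UW in blue and W in red. Points are sums over cells, bars are exact Poisson 95% intervals (clipped at the left edge, with no point where no UMI was counted), and the dotted line marks 10 CPM. Jag2 lies at 34.3 CPM or more in clusters 3, 8, 9 and 11 and at 5.23 CPM or less in the other epithelial clusters of both libraries, and Hey1 passes 10 CPM in cluster 10 alone.

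The wound comparison was made within each cluster as the log2 ratio of CPM, W over UW, with an exact conditional binomial 95% interval. Ratios are given for genes with at least 20 UMIs over both libraries and 10 CPM in either. Of 96 pairs of a member and a cluster, 61 passed. Of these, 3 passed through 1 library alone, which fixed the sign of their ratio (Jag1 in clusters 6 and 10 through W and Notch3 in cluster 9 through UW). A gene was counted as past 2-fold where the log2 ratio reached 1 in either direction. The share of all genes past 2-fold was 9.5% in cluster 0, 17.9% in cluster 1, 19.5% in cluster 2, 20% in cluster 3 and 21% in cluster 4. It was 12.6% in cluster 5, 19.6% in cluster 6, 22.5% in cluster 7 and 14.3% in cluster 8. In clusters 9, 10 and 11 it was 13.7%, 7.04% and 17%. The members' share was 9.84%, with 3 of the 61 higher and 3 lower, and lay between the 7.04% of all genes in cluster 10 and the 22.5% in cluster 7. The interval lay below 0 for 43 of the 61 ratios (70.5%) and above 0 for 12 (19.7%). Over all genes and the same 12 clusters these shares were 44.6% and 34.8%.

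All 3 receptors were lower in W in most clusters by CPM, a share of all UMIs of the cluster. The mean count per cell did not always follow. For Notch1 it was 3.23 UMIs in UW and 3.24 in W in cluster 9, and 3.17 and 3.35 in cluster 11. In cluster 3 it was 2.76 and 1.97, and in cluster 8 it was 5.01 and 4.15. For Notch2 in cluster 0 it was 1.025 and 1.123. With cells thinned to 5000 UMIs the mean of Notch1 in cluster 9 was 1.09 and 0.628. Notch1 was lowest relative to UW in the 4 clusters where it was most abundant, from 151 to 77.4 CPM in cluster 3 (log2 ratio -0.96, interval -1.04 to -0.88), with log2 ratios of -0.88 in cluster 8, -0.83 in cluster 9 and -0.65 in cluster 11. In clusters 1, 5, 6 and 10 the interval of Notch1 included 0, and the ratio in cluster 10 was 0.14. In cluster 10 of UW Notch1 was 1.12 times the level that keratin-scaled epithelial RNA would give, as set out below. Less that level the ratio there became 2.47, which rests on a small remainder. With TMM scaling the ratio of Notch1 in cluster 3 was -1.02, past 2-fold. Notch2 was lower in W in 11 of 11 clusters that passed, with log2 ratios from -0.70 to -0.34. Keratocyte-like cluster 0 shared this direction, with 85.4 CPM in UW and 59.5 CPM in W (log2 ratio -0.52, interval -0.61 to -0.43). The median of all genes lay between -0.25 and 0.01 in these clusters, and Notch2 stood between the 18.3th and 43.6th percentile of all genes in them. Notch3 was lower with an interval off 0 in 7 of 9 clusters. Its lowest ratio was in basal-like cluster 3, from 55.8 to 25.8 CPM (log2 ratio -1.11, interval -1.25 to -0.98), the 7.68th percentile of all genes there. In superficial-like cluster 6 Notch3 was higher in W (log2 ratio 0.29, interval 0.04 to 0.53).

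**Figure D2:**
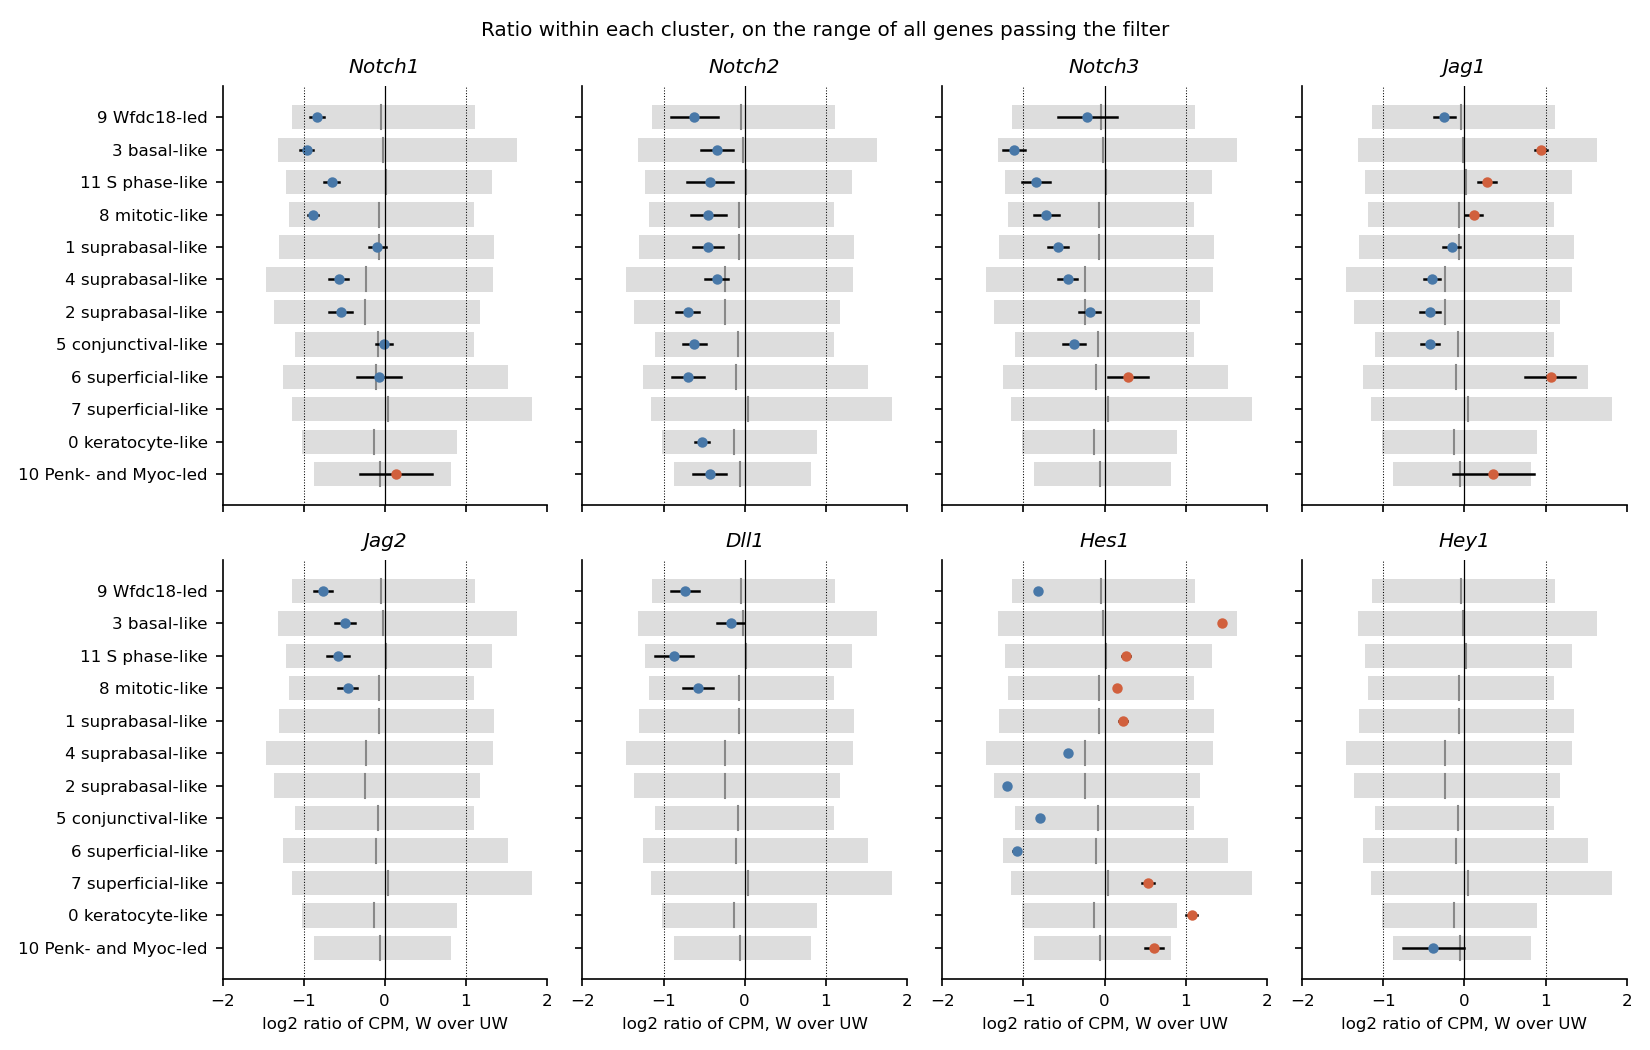
Log2 ratio of CPM, W over UW, of each gene in each cluster where it passed the count filter (points, red above 0 and blue below 0, with counting intervals as black lines). Grey bars span the 5th to 95th percentile of all genes passing in that cluster, grey ticks their median and dotted lines 2-fold. Notch2, Jag2 and Dll1 lie left of 0 in every cluster shown, while Hes1 runs from -1.21 in cluster 2 to 1.44 in cluster 3.

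The ligands fell into 2 patterns of place. Jag1 was found in basal and suprabasal clusters at different levels. In UW it measured 83.8 CPM in basal-like cluster 3, 82.2 CPM in cluster 9, 76.0 CPM in cluster 11, 70.7 CPM in cluster 8, 69.1 CPM in cluster 4 and 66.0 CPM in cluster 1. It was lower in suprabasal-like cluster 2, at 38.1 CPM, and stood at 4.89 and 2.98 CPM in superficial-like clusters 6 and 7. Jag2 and Dll1 were high in clusters 3, 8, 9 and 11 and low in the rest of the epithelium. Jag2 stood at 128 CPM (120 to 136) in cluster 9, 65.8 CPM in cluster 11, 62.0 CPM in cluster 8 and 48.1 CPM in cluster 3 of UW, and at 0.857 to 2.38 CPM in the other 6 epithelial clusters. Dll1 stood at 55.9, 26.3, 25.9 and 23.4 CPM in clusters 9, 8, 11 and 3 of UW, and at 0.574 to 2.10 CPM in the other 6. In suprabasal-like clusters 1, 2 and 4 of UW, Jag1 therefore made up 95.5%, 95.6% and 96.9% of the UMIs of the 5 ligands, against 30.9% in cluster 9. Dll3 reached no more than 1.55 CPM in any cluster.

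**Figure D3:**
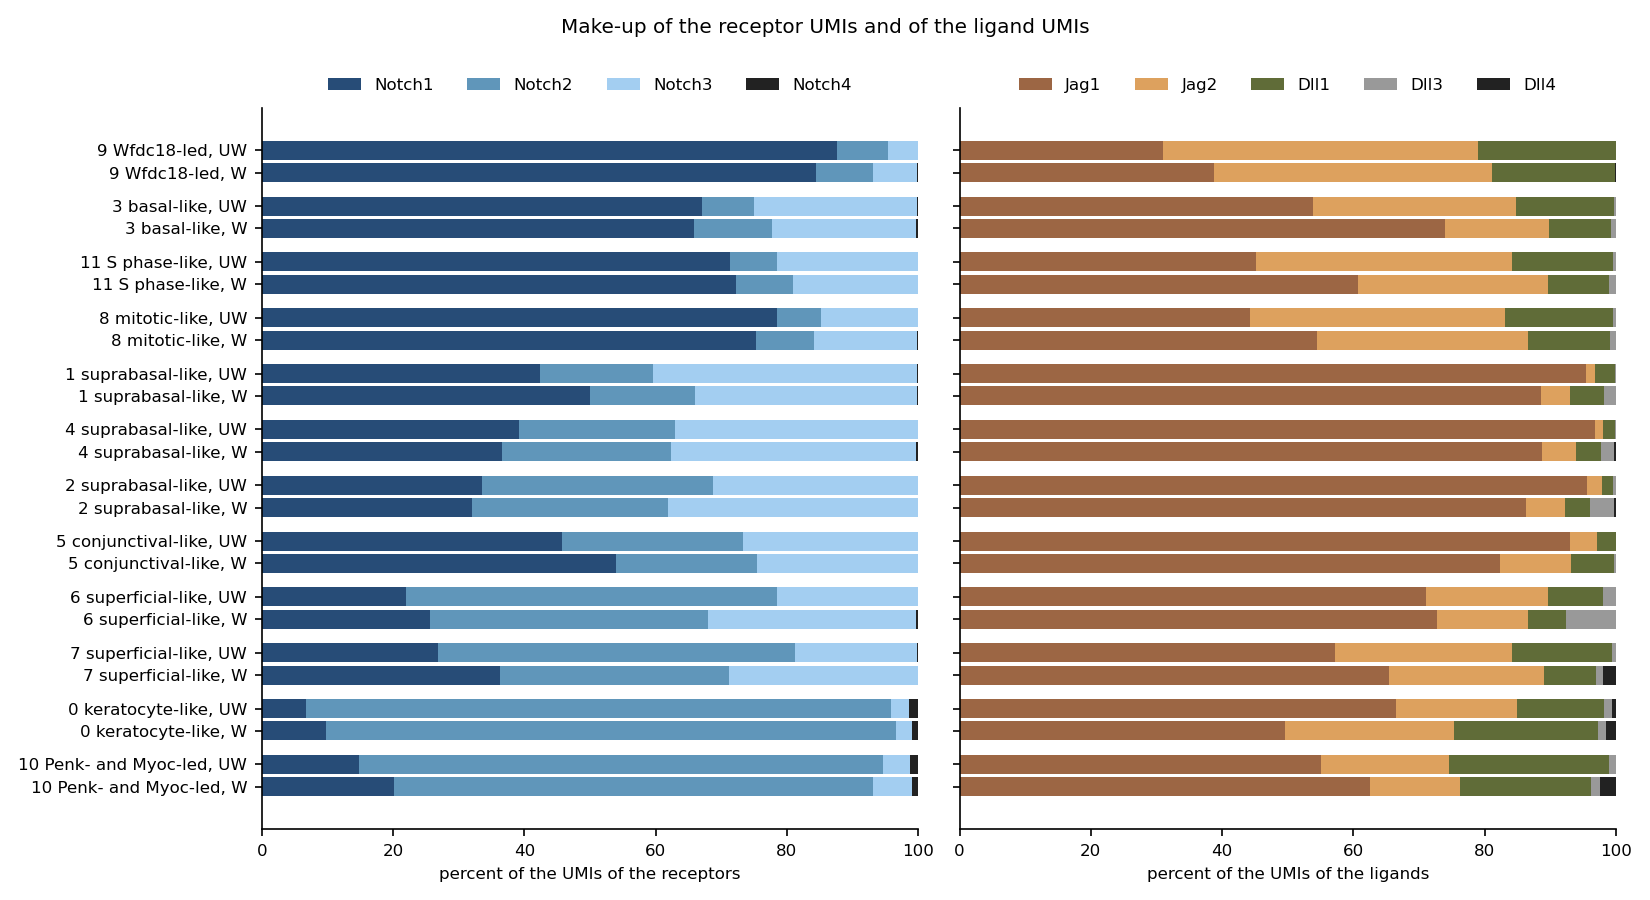
Percent of the UMIs of 4 receptors (left) and of 5 ligands (right) taken by each gene in each cluster and library. Notch2 fills most of the receptor bars of clusters 0 and 10, Jag1 most of the ligand bars of clusters 1, 2, 4 and 5, and in cluster 3 the share of Jag1 is 53.8% in UW and 74.0% in W.

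Basal-like cluster 3 combined more Jag1 with less Jag2 in W. Jag1 stood at 83.8 CPM in UW and 161 CPM in W (log2 ratio 0.94, interval 0.87 to 1.02), the 88.5th percentile of all genes in that cluster. With every cell thinned to 5000 UMIs the ratio of Jag1 in cluster 3 was 1.02, past 2-fold. Jag2 stood at 48.1 CPM in UW and 34.3 CPM in W (log2 ratio -0.49, interval -0.61 to -0.36), and Dll1 at 23.4 and 20.8 CPM. Outside cluster 3 the ratios of Jag1 went both ways. It was higher in clusters 8, 11 and 6, with log2 ratios of 0.12, 0.28 and 1.06, and lower in clusters 1, 2, 4, 5 and 9, with ratios from -0.42 to -0.16. The ratio of 1.06 in cluster 6 rests on levels of 4.89 and 10.2 CPM, and its sign was fixed by the filter. The 2-fold call there is lost with TMM scaling, at 0.90. Jag2 and Dll1 were lower in W in the 4 clusters where they passed the filter, in cluster 9 with 128 and 75.3 CPM of Jag2 (log2 ratio -0.76) and 55.9 and 33.5 CPM of Dll1 (log2 ratio -0.74). This holds for CPM. Cluster 9 held 972 UMIs of Jag2 and 426 of Dll1 in its 521 UW cells. Its 956 W cells held 1874 and 834, so neither was lower per cell there.

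Summed over all epithelial cells the same ligands showed the opposite sign. Jag2 was 13.5 CPM in UW and 25.6 CPM in W (log2 ratio 0.92, interval 0.86 to 0.98), and Dll1 was 6.53 and 11.3 CPM (log2 ratio 0.79, interval 0.71 to 0.88). Dll1 passed the filter in the sum through W alone, so the sign of its ratio adds no support. Clusters 3, 8, 9 and 11, which carry both ligands, made up 25.6% of the epithelial cells of UW and 43.9% of those of W, and 19.9% and 48.6% of the epithelial UMIs. When the level of each cluster was weighted by the UW cell numbers in both libraries, Jag2 was 17.6 CPM in UW and 13.3 CPM in W (log2 ratio -0.41), and Dll1 8.38 and 6.88 CPM (log2 ratio -0.28). Notch1 turned in the same way, from 0.12 in the sum to -0.57 with the UW cell numbers as weights. Both values describe the same cells, and with 1 library of each kind the wound and the sampling of clusters cannot be told apart. Of the 7 members that passed in the epithelial sum none was past 2-fold, against 20.3% of all genes. In the 6 epithelial clusters where Jag2 was under 10 CPM its level was higher in W in each (1.95 to 5.23 CPM). Dll1 was higher in W in 5 of these 6. The part of free RNA in these low levels was not tested.

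**Figure D4:**
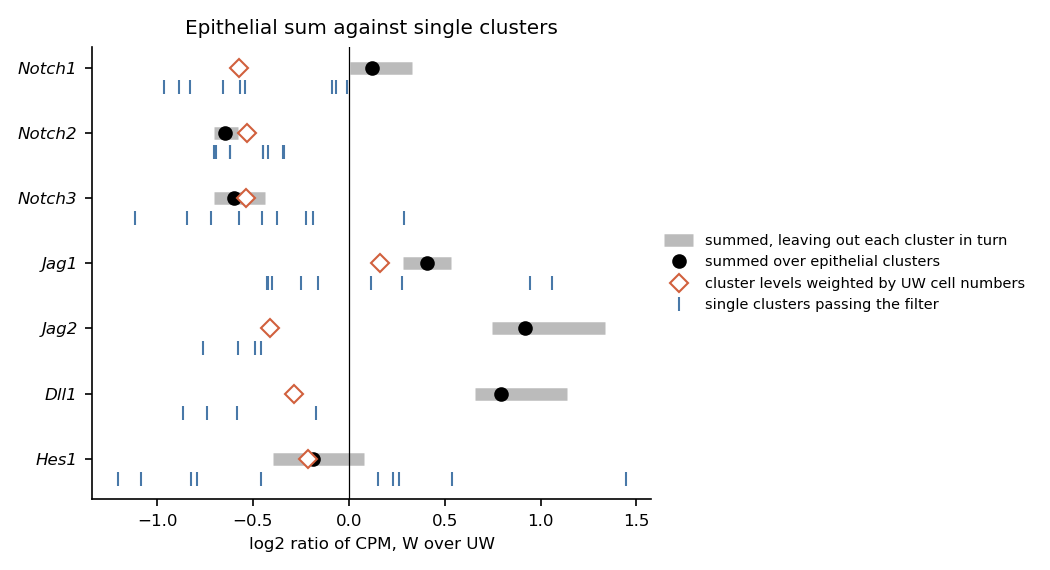
Log2 ratio of CPM, W over UW, of 7 genes for all epithelial cells summed (black), with the range on leaving out each cluster in turn (grey), for cluster levels weighted by UW cell numbers (open diamonds) and in single epithelial clusters that passed the filter (blue ticks). For Jag2, Dll1 and Notch1 the black point lies right of 0 and the diamond left of it.

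Hes1 was the member with the highest counts, and its highest cluster differed between the libraries. In UW it stood at 994 CPM in suprabasal-like cluster 2, 929 CPM in cluster 9, 796 CPM in cluster 4, 709 CPM in cluster 5 and 642 CPM in cluster 6, against 367 CPM in basal-like cluster 3. In W it was highest in cluster 3, at 998 CPM (985 to 1011), with 526 CPM in cluster 9 and 431 CPM in cluster 2. No 2 neighbours in the UW order had overlapping intervals. The log2 ratio was 1.44 in cluster 3 (interval 1.41 to 1.48), the 94.1th percentile of all genes there, and 1.07 in keratocyte-like cluster 0 (interval 1.01 to 1.14). It was -1.21 in cluster 2 (interval -1.24 to -1.18), -1.08 in cluster 6 and -0.82 in cluster 9. Hes1 was therefore past 2-fold in 4 of 12 clusters, 2 in each direction. Both lower calls were lost with the mean of per-cell CPM (-0.97 in cluster 2 and -0.80 in cluster 6) and with thinning (-0.98 and -0.80). Summed over epithelial cells these ratios nearly cancelled, with 587 CPM in UW and 515 CPM in W (log2 ratio -0.19). The sign of this sum turned to 0.14 with the mean of per-cell CPM.

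The higher Hes1 of cluster 3 came with a long upper tail of cells. With each cell thinned to 5000 UMIs, 62.3% of 1708 UW cells and 79.4% of 865 W cells held a Hes1 UMI. The mean was 1.87 UMIs in UW and 6.58 in W, the median 1 and 3, and the 90th percentile 5 and 18. Cells with at least 10 Hes1 UMIs, a number chosen after the values were seen, were 1.87% of the UW cells (1.28 to 2.63%) and 21.6% of the W cells (18.9 to 24.5%). For Jag1 the share of cells with a UMI was 33.0% in UW and 52.4% in W. The mean of Jag1 was 0.434 and 0.880 UMIs. Before thinning these shares were 83.7% and 96.3% for Hes1 and 73.2% and 87.8% for Jag1. The same cluster 3 cells differed in keratins, with 29080 and 11910 CPM of Krt12 and 1256 and 14010 CPM of Krt14 in UW and W. This was not particular to cluster 3. Krt14 was higher in W in the other clusters of both libraries too, with 136 and 17120 CPM in cluster 1. Krt12 was lower in most, with 41510 and 22780 CPM in cluster 1, and higher in clusters 6 and 7.

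**Figure D5:**
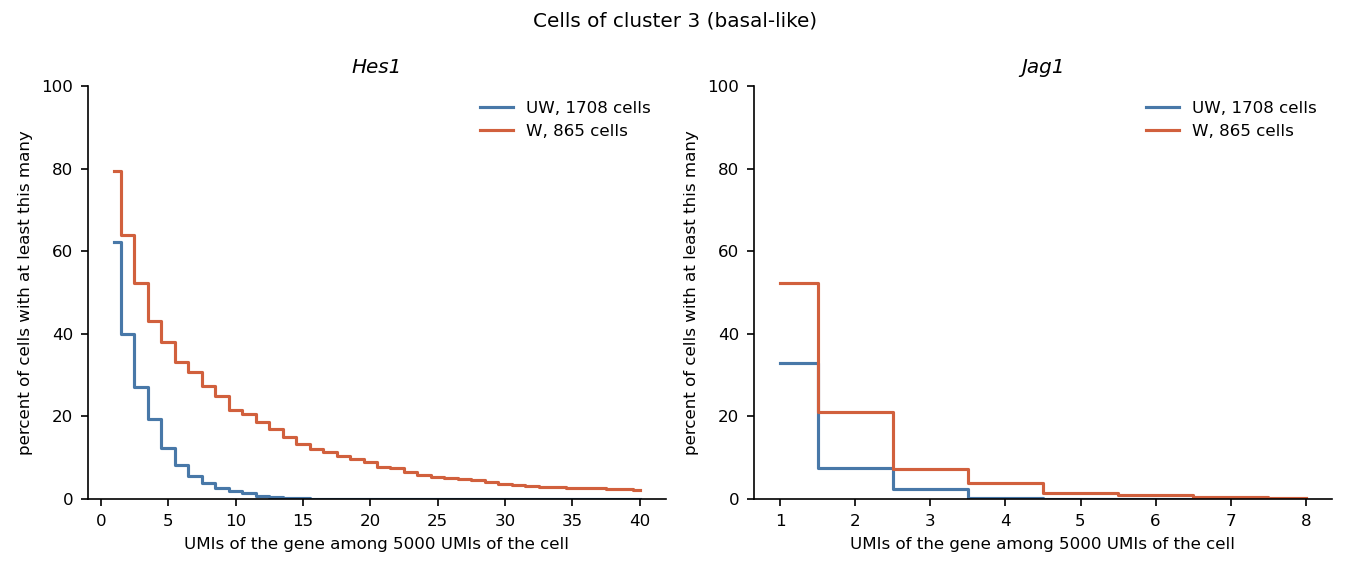
Percent of cluster 3 cells with at least a given number of UMIs of Hes1 (left) or Jag1 (right) after each cell was thinned to 5000 UMIs, UW in blue (1708 cells) and W in red (865 cells). The W curve of Hes1 stays near 20% at 10 UMIs, where that of UW is near 2%.

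Cells with many Hes1 UMIs also held more UMIs of immediate early genes. A list of 14 genes induced early after stress or dissociation (among them Fos, Junb, Atf3 and Egr1) summed to 13270 CPM in UW and 10390 CPM in W in cluster 3, and to 14530 and 5775 CPM in cluster 0. As a sum the list was lower in W in 12 of 12 clusters, while Hes1 was higher in 7 of them and lower in clusters 2, 4, 5, 6 and 9. Of the 14 genes, 5 were higher in W in cluster 2, 4 in clusters 4 and 6, and 0 in clusters 0, 8, 9 and 11. In cluster 9 the log2 ratio was -0.95 for the list and -0.82 for Hes1. Within cluster 3 of W, the 187 cells with at least 10 Hes1 UMIs held a mean of 119 UMIs of the list per 5000, against 46.4 in the other cells. Such cells had the higher mean in 17 of 17 combinations of a cluster and a library with at least 20 of them. In the same W cells of cluster 3 the mean of Jag1 was 1.02 UMIs against 0.841, and that of Notch1 0.519 against 0.367. Over the same 17 combinations each of these 2 genes had the higher mean in such cells in 11. The part of dissociation in the level of Hes1 was not tested.

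In clusters 0 and 10 Hes1 was higher in W. It stood at 86.3 CPM in UW and 182 CPM in W in cluster 0, and at 171 and 261 CPM in cluster 10 (log2 ratio 0.61, interval 0.50 to 0.72). Hey1, which acts beside Hes1, was the most restricted member. It reached 19.96 CPM (16.5 to 24.0) in UW and 15.3 CPM (12.7 to 18.2) in W in cluster 10 and 5.10 and 5.61 CPM in cluster 0, and no more than 1.97 CPM in any epithelial cluster. Its ratio could be given in cluster 10 alone (log2 ratio -0.39, interval -0.76 to -0.01). The share of cells of cluster 10 with a Hey1 UMI at 5000 UMIs was 8.78% in UW (6.54 to 11.5%) and 6.45% in W (4.65 to 8.68%). These intervals overlapped. At full depth it was 16.99% and 17.2%. Hey1 had no UMI in cluster 1, 2 or 4 of W.

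Epithelial keratins were also counted in cluster 0, and their share gives a background for the members there. Whether this RNA was free in the suspension or came from doublets or carried-over epithelial cells was not tested. Krt12, which keratocytes should lack, stood in cluster 0 at 5.81% of its epithelial level in UW and 5.96% in W. Scaled by the highest of Krt5, Krt12 and Krt14, epithelial RNA alone would give cluster 0 of W 5.13 CPM of Notch1 and 4.69 CPM of Jag1. The measured 6.66 and 6.13 CPM were 1.30 and 1.31 times that, so these levels are read as close to background. Hes1 in cluster 0 was 1.32 times the scaled level in UW and 4.81 times in W. The UW level of Hes1 is thus as close to the floor as those of Notch1 and Jag1 in W, and the size of its ratio depends on the floor taken. The log2 ratio was 1.07 with nothing subtracted, 1.53 less the level that Krt12 gives and 2.79 less that of the highest keratin. In cluster 10 Hes1 was 1.69 times the scaled level in UW and 5.65 times in W, and its log2 ratio of 0.61 became 1.62 less the level of the highest keratin. Notch2 in cluster 0 was 29.4 and 48.8 times the scaled level in UW and W. Mural cell markers summed to 175 CPM in UW and 223 CPM in W in cluster 0, and vascular endothelium markers to 218 and 80.4 CPM (log2 ratio -1.44), although 5 of these 6 markers were higher in W. The part of these cells in the ratios of Hes1, Notch2 and Dlk1 there was not tested. Notch3, a receptor known from vascular mural cells, was 2.64 and 1.66 CPM in cluster 0.

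Among the cells found almost only in W, the T-like cluster 16 held 61.6 CPM of Notch1 (47.4 to 78.7), 4.18 times the keratin-scaled level, and the monocyte- and macrophage-like cluster 15 held 41.7 CPM (34.4 to 50.1), 5.12 times. Cluster 15 also held 30.6 CPM of Jag1, 4.12 times the scaled level, and 49.8 CPM of Hes1, at 0.830 of it, the lowest Hes1 of the 17 clusters of W. Notch2 was 61.0 CPM in cluster 13, 9.99 times the scaled level. In clusters 13 and 14, where keratins reached 29.0 to 49.0% of their epithelial level, Jag1 and Hes1 lay between 0.875 and 1.16 times the scaled level and are read as close to background. At 2000 UMIs per cell Notch1 had a UMI in 14.1% of 205 cells of cluster 16, 8.76% of 251 cells of cluster 15 and 7.71% of 584 cells of cluster 13, and the intervals of clusters 16 and 13 overlapped. In cluster 13 the level of Notch1 was 1.72 times the keratin-scaled level, so its share is read as close to background.

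A wider list of 63 Notch pathway genes was read in the same way, of which 62 were in the table. In the epithelial sum 35 passed the filter, 1 was past 2-fold higher and none lower, against 20.3% of all genes past 2-fold, and the median log2 ratio was -0.19 beside 0.05 over all genes. The gene past 2-fold was Dlk2, a non-canonical ligand, with 2.28 CPM in UW and 17.1 CPM in W (log2 ratio 2.90, interval 2.79 to 3.02). It passed the filter there and in clusters 8 and 11 through W alone, which fixed the sign. In cluster 9, which Dlk2 leads, it was 61.3 and 90.8 CPM (log2 ratio 0.57), and in mitotic-like cluster 8 2.58 and 21.1 CPM (log2 ratio 3.03). In cluster 0, 36 genes passed, 2 were past 2-fold higher and 1 lower, against 9.5% of all genes, with a median of -0.15 beside -0.13 over all genes. Dlk1, the other non-canonical ligand, was 22.1 CPM in UW and 5.55 CPM in W (log2 ratio -1.995) and passed through UW alone, and Dtx3l, a ubiquitin ligase partner of the Deltex family, 10.7 and 21.8 CPM (log2 ratio 1.02). The third was Hes1. In basal-like cluster 3, 36 passed, 2 were past 2-fold higher and 3 lower, against 20% of all genes, with a median of -0.20 beside -0.02. The next 5 genes were named after their values were seen. The coactivator gene Maml2 was past 2-fold lower in 6 of 10 clusters and the corepressor gene Spen in 5 of 12, where 7.04 to 22.5% of all genes were past 2-fold in either direction. Lfng, a glycosyltransferase that modifies Notch receptors, was 17.3 CPM in UW and 5.91 CPM in W in cluster 9, and passed the filter through its UW level alone, so its ratio had to be below 0. In cluster 3 Furin, a protease that matures the receptors, was 36.4 and 86.6 CPM (log2 ratio 1.25). Nrarp, a feedback inhibitor and direct Notch target, did not follow Hes1 in cluster 3, with 59.0 CPM in UW and 55.9 CPM in W (log2 ratio -0.08, interval -0.18 to 0.03). In conjunctival-like cluster 5 it was 222 and 93.1 CPM (log2 ratio -1.26), beside 709 and 410 CPM of Hes1 there.

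Over the 24 sums of 12 clusters in 2 libraries, the pattern of log2(CPM + 1) of each member was set beside those of 8691 genes by Pearson's r, as a description of sums that share libraries. Notch1 was most like Trp63 (r = 0.98), Rab15 and Rassf9, and Notch2 most like Pbxip1 (r = 0.97), Ggcx and Ppm1l. Notch3 was most like Gm15987 (r = 0.97), Lypd3 and Fam83b, and Jag1 most like Fermt1 (r = 0.97), Nrip1 and Pak6. Jag2 had Spon2 (r = 0.98), Wnt10a and Dll1 as its nearest genes, and Dll1 had Jag2 (r = 0.97), Cpe and Nrg2, so these 2 ligands were each among the other's 3 nearest genes. Hes1 had the weakest neighbours, with Cyb561 (r = 0.86), Klhdc8a and Fam83g, and Hey1 was most like Pkia (r = 0.99), Slc7a2 and Cldn10. Notch1 and Jag1 had r = 0.93 with each other, and Notch3 had r = 0.92 with Nrarp, which is no member.

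UMIs of a receptor and a ligand were also counted under the same barcodes, with cells named doublets kept. At 5000 UMIs per cell, 15.2% of the UW cells and 13.1% of the W cells of cluster 3 held UMIs of both Jag1 and Notch1, against 0.216% and 0.176% in cluster 0. The shares expected in cluster 3 if both were spread over cells independently were 15.8% and 14.2%. In suprabasal-like cluster 4 of UW the share was 8.16% against 6.68% expected, and in cluster 9 of UW 17.6% against 20.2%. In cluster 3 of UW 3.98% of cells held both Dll1 and Jag2, against 2.39% expected. In cluster 8 of UW this was 3.33% against 3.60%. The pairs and clusters named are a selection of those counted. These shares describe barcodes, and the part of doublets and of RNA from other cells was not tested.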

How the data were processed

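The 2 10x Genomics 3′ libraries (UW and W) were analysed. The authors deposited raw UMI counts per gene and cell and a table of cells with library, cluster number and doublet calls. Per the labels, the counts came from Cell Ranger 3.1.0 and Seurat. The submitters' processing notes name mm9 and the v3 kit, and the paper mm10 and the V2 kit. Per the paper's methods, the authors discarded cells below 500 or above 8000 genes or over 10% mitochondrial counts, dropped genes seen in under 5 cells, called doublets with DoubletFinder, and removed cells with a dissociation signature unless other markers explained them. The deposited cluster numbers, from principal components of variable genes after integration of the libraries, were used as given.

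Counts were summed by deposited cluster and library in Python 3.11.15 (numpy 2.4.6, scipy 1.17.1, pandas 2.3.3). CPM carries an exact Poisson 95% interval, shares an exact Clopper-Pearson interval, and ratios an exact conditional binomial interval. Ratio scripts were tested on simulated data. TMM factors came from edgeR 4.0.16 and size factors from DESeq2 1.42.0 in R 4.3.3. Cells were thinned without replacement to 5000 UMIs (2000 for clusters 13 to 17). Shallower cells were left out, with 6 to 92 cells in each sum of clusters 0 to 11 and 126 of 710 in cluster 13 of W. The deposited doublet columns named 305 cells of UW and 164 of W, which were kept in the main values.

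The text names the 8 members, pathway genes past 2-fold in the epithelial sum or cluster 0, and the 3 genes most like each member among genes with at least 20 CPM in any sum. Maml2, Spen, Lfng, Furin and Nrarp lie outside this rule and were named after their values were seen. Members, lists and markers were chosen with earlier results of these data known.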

Additional observations from a re-analysis of the deposited data

Results flagged for a closer look

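Hes1 is listed because its log2 ratio of W over UW had opposite signs in different clusters, by more than 0.5 in each direction and with counting intervals off 0. It was 1.44 in basal-like cluster 3 and -1.21 in suprabasal-like cluster 2. With 1 library per condition the difference between the clusters was not tested.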

How the results depend on the processing

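With 1 library per condition no setting gives a test, and depth limits mainly Hey1 in the epithelium and the low ligands of suprabasal and superficial clusters. No paired analysis was possible because each condition was 1 library. Values below are log2 ratios of W over UW, and the cause of a change was not tested.

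In the epithelial sum, TMM and DESeq2 scaling shifted all genes by -0.22 and -0.23 and gave -0.10 and -0.11 for Notch1, -0.86 and -0.88 for Notch2, -0.82 and -0.83 for Notch3, 0.19 and 0.18 for Jag1, 0.70 and 0.69 for Jag2, 0.58 and 0.56 for Dll1 and -0.40 and -0.42 for Hes1. A stricter cell filter (1000 genes or more, mitochondrial share up to 5%) gave 0.16 for Notch1, 1.075 for Jag2 (past 2-fold), 0.93 for Dll1 and -0.28 for Hes1, and leaving out cells named doublets gave -0.17 for Hes1. The mean of per-cell CPM gave -0.21 for Notch1, -0.67 for Notch3, 0.27 for Jag1, 0.38 for Jag2, 0.41 for Dll1 and 0.14 for Hes1. Thinning gave -0.12 for Notch1, -0.53 for Notch2, -0.71 for Notch3, 0.34 for Jag1, 0.44 for Jag2, 0.35 for Dll1 and 0.14 for Hes1. Weighting clusters by UW cell numbers gave -0.57 for Notch1, -0.53 for Notch2, -0.54 for Notch3, 0.16 for Jag1, -0.41 for Jag2, -0.28 for Dll1 and -0.21 for Hes1. Leaving out each epithelial cluster in turn gave 0.0043 to 0.33 for Notch1, -0.71 to -0.58 for Notch2, -0.70 to -0.44 for Notch3, 0.28 to 0.53 for Jag1, 0.75 to 1.34 for Jag2, 0.66 to 1.14 for Dll1 and -0.39 to 0.081 for Hes1. Jag2 passed 2-fold without cluster 3, 5 or 11, Dll1 without cluster 3, and Hes1 turned sign without cluster 2.

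In cluster 0, TMM and DESeq2 scaling gave -0.38 and -0.35 for Notch2 and 1.22 and 1.25 for Hes1. The mean of per-cell CPM gave 1.18 for Hes1, and subtraction of the Krt12-scaled background, chosen after seeing the data, gave 1.53, and that of the highest keratin, also added then, 2.79. In cluster 10 the latter gave 2.47 for Notch1, 2.44 for Jag1 and 1.62 for Hes1, all past 2-fold. The UW levels of Notch1 and Jag1 there were 1.12 and 1.14 times the scaled level. Their 2 ratios thus rest on small remainders and are not read as calls, and Jag1 passed the filter there through W alone. In clusters 1 to 11 the sign of Notch1 in cluster 5 turned, with 0.05 at stricter cells, 0.04 without doublets and 0.05 thinned. Hes1 came under 2-fold in clusters 2 (-0.97) and 6 (-0.80) with per-cell CPM. Thinning gave -0.98 and -0.80 there, and took Dll1 in cluster 9 past 2-fold (-1.08). Hes1 in cluster 5 was past 2-fold with stricter cells (-1.01). Without the count filter 7545 genes instead of 1515 were past 2-fold in the epithelial sum and 5558 instead of 806 in cluster 0. Of the genes past 2-fold, 61.5% were higher in W in the epithelial sum (40.7% with TMM, 39.6% with DESeq2) and 44.5% in cluster 0 (59.7% and 62.5%).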
